A study of Homo sapiens with 8 samples.

Results

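The 9 genes described here are the ID genes ID1, ID2, ID3 and ID4 and 5 genes tied to bone morphogenetic protein (BMP) signalling, SMAD6, SMAD7, SMAD9, BAMBI and ATOH8. They were chosen by name, and all 9 were among the 15811 genes of the deposited table. Total RNA was sequenced from 4 EXT1-/- libraries, made from a line edited with CRISPR/Cas9 at the EXT1 locus, and 4 wild-type (WT) libraries. The parent line is H9, a long-established line of human embryonic stem cells. EXT1 encodes a polymerase of heparan sulfate, the sulfated sugar chain of cell surface proteoglycans, and the labels describe the edited line as lacking this glycan. Both groups were grown in E8 medium on vitronectin, seeded with the ROCK inhibitor Y-27632 and then induced towards mesendoderm for 28 h in RPMI-1640 with 6 µM CHIR-99021. CHIR-99021 inhibits GSK3 and thereby switches on β-catenin signalling, and the labels list no BMP ligand among the additions. How many clones the edited line comprises, and whether each replicate was its own culture, is not in the labels. The tests therefore set differences against the scatter of libraries that may be technical repeats. No uninduced library was analysed here.

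BMP ligands bind paired receptors that phosphorylate SMAD1, SMAD5 and SMAD9, which enter the nucleus with SMAD4 and activate target genes. The ID genes are among the most direct of these targets. ID proteins carry a helix-loop-helix domain but no DNA-binding basic region, so they pair with E proteins and other basic helix-loop-helix (bHLH) factors and keep them off DNA. SMAD6, SMAD7 and BAMBI are also induced by the pathway and restrain it, which makes them its negative feedback. In early embryos BMP signals pattern the primitive streak, the amnion and the border of the neural plate, and heparan sulfate binds several BMP ligands and antagonists outside the cell.

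The sequence before the start of transcription is shown for the 3 most abundant ID genes, of which ID3 differed between the groups in the opposite direction to ID1 and ID2, for SMAD6, which had the largest fold change of the 9, and for BAMBI, which did not pass the test. Each window runs from 250 bases before to 50 bases after a RefSeq start (GRCh38.p14), and RefSeq windows were found for all 9 genes. Capitals mark matches, on either strand, to GGCGCC or GGAGCC, the GC-rich elements known to bind SMAD1 and SMAD5, to CAGAC, the SMAD box, or to GTCTAGAC, its palindromic form.
ID1, chr20:31605039-31605338, plus strand: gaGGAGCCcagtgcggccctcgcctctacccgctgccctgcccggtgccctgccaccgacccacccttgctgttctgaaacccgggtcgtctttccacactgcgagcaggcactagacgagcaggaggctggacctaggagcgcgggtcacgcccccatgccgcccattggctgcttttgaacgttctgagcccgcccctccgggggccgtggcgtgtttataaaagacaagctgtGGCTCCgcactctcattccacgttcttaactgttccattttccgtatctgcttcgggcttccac
ID2, chr2:8681806-8682105, plus strand: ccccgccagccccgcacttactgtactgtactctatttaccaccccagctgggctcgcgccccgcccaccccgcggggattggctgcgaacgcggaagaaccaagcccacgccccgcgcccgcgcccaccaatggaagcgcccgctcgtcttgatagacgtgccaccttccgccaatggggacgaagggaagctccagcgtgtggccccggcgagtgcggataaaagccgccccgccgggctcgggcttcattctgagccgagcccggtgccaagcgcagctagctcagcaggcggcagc
ID3, chr1:23559452-23559751, minus strand: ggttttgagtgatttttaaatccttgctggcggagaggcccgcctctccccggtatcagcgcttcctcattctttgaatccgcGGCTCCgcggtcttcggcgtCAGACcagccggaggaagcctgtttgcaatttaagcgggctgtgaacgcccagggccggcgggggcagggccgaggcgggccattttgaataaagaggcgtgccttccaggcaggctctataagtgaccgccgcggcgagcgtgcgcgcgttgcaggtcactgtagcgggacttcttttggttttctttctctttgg
SMAD6, chr15:66701986-66702285, plus strand: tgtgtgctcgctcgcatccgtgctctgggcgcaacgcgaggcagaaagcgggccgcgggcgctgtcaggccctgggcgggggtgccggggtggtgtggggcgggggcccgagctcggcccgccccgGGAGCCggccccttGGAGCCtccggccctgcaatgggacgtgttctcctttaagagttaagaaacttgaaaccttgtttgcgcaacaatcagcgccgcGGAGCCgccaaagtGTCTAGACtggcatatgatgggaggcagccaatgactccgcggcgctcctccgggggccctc
BAMBI, chr10:28677271-28677570, plus strand: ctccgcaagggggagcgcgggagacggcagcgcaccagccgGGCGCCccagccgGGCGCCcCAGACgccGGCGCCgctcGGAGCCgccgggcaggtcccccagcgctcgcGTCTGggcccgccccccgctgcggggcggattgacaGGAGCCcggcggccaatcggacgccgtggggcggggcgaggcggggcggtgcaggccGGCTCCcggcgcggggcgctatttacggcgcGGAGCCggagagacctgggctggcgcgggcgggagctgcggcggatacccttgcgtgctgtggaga

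The palindrome GTCTAGAC was found in the SMAD6 window and in no other window of the 9 genes, and 0.202% of the 35116 RefSeq windows hold it. GGCGCC was found only in BAMBI among the 9 genes, and 19.2% of all windows hold it. GGAGCC, present in 36.0% of all windows, was found in 8 of the 9 genes, ID2 being the exception. A gene was counted if any of its windows held a match, so counts of genes and shares of windows are unlike measures. SMAD7 had 3 windows, and GGAGCC was found only in its window 3. CAGAC, present in 45.3% of all windows, was found in ID3, ID4, SMAD7, SMAD9 and BAMBI. A window of 300 bases does not reach more distant elements, and a match describes letters, not binding.

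Of the 9 genes, 6 were higher in EXT1-/- cells and 1, ID3, was lower with limma's adjusted p under 0.05 (Benjamini-Hochberg, 15811 genes), while SMAD9 and BAMBI did not pass. Across all genes tested, 15.2% were called higher, 16.8% lower and 32.0% in either direction. With the library set, defined by mitochondrial share, as a term in the fit, 26.2% were called higher and 25.6% lower, and each of the 9 genes kept its call. The median log2 fold change was 0.81 over the 9 genes and 0.01 over all genes. The groups did not overlap in 6 of the 9 genes, each with EXT1-/- higher, and in 16.3% of all genes in that direction. None of the 9 was free of overlap with EXT1-/- lower, as 17.2% of all genes were. The authors' deposited table gives 6 of these genes as higher and 1 as lower at an FDR of 0.05, with the same call and direction for each of the 9 genes, beside 12.6% and 13.6% of all genes in that table. The members and lists were chosen with earlier results of these data known, so these counts are a description of named genes.

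The libraries split by their mitochondrial transcripts, a division absent from the labels. These transcripts took 9.18% to 10.67% of the normalised counts in EXT1-/- replicates 1 and 4 and WT replicate 1, the high set, and 5.30% to 5.43% in the other 5 libraries, the low set. Every difference given for the high set therefore rests on WT replicate 1 as its only WT library. Totals of normalised counts ran from 37737058 to 40017763 per library. EXT1 itself had 890 to 980 normalised counts in EXT1-/- libraries and 1464 to 1776 in WT libraries, so its transcript was lower but present.

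**Figure D1:**
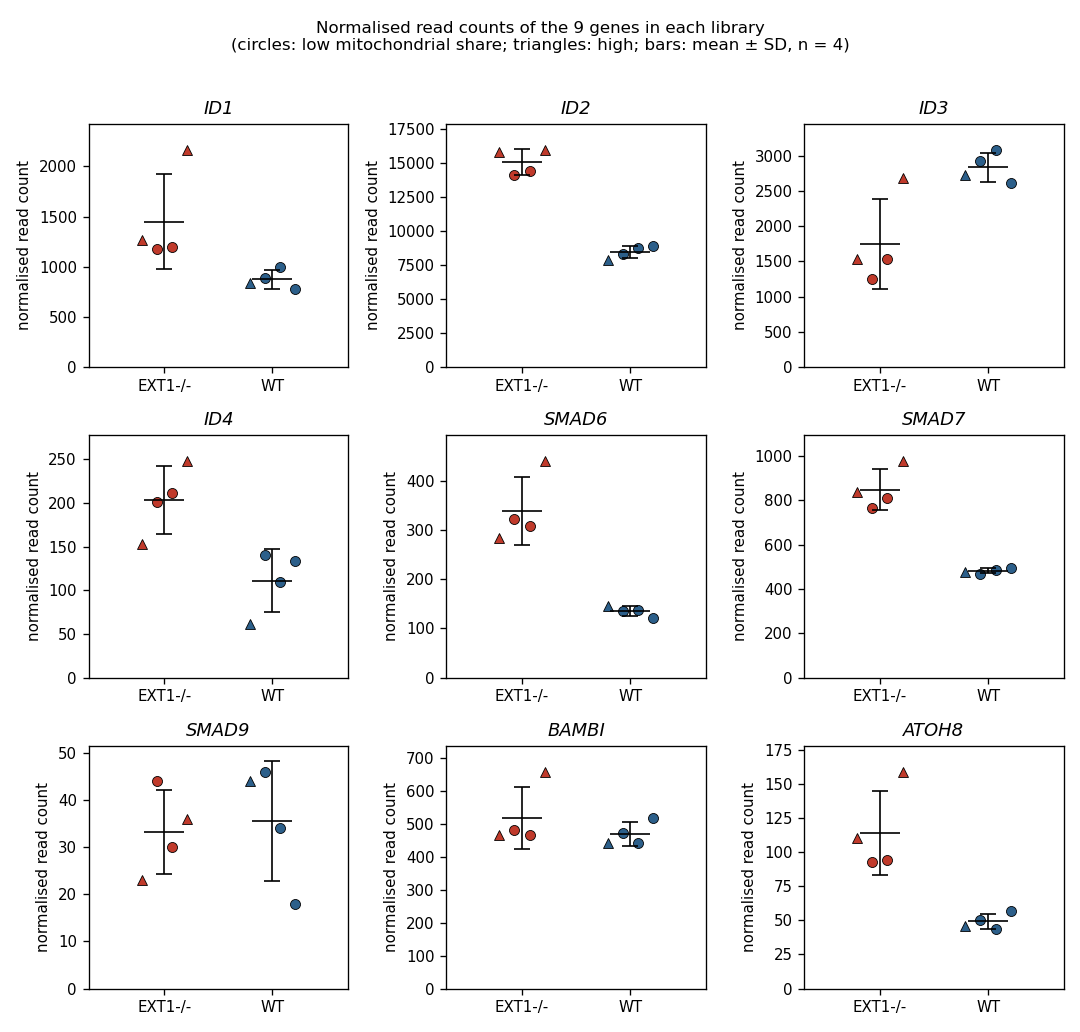
Normalised read count of each of the 9 genes (vertical axes, starting at 0) in the 4 EXT1-/- and 4 WT libraries, with the mean and SD. ID3 is the gene with lower EXT1-/- values, its highest EXT1-/- library (2686) lying among the WT libraries, and SMAD9 and BAMBI overlap between the groups.

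ID2 was the most abundant of the 9 genes per length of annotated exon and was higher in every EXT1-/- library. This gene (ENSG00000115738, chromosome 2, 8678845 to 8684453, plus strand, GRCh38, GENCODE 29) had 15822, 14143, 14449 and 15973 normalised counts in EXT1-/- replicates 1 to 4, against 7898, 8290, 8794 and 8901 in WT replicates 1 to 4. The EXT1-/- values stood well apart from the WT values and varied little among themselves. Its log2 fold change was 0.83 ± 0.06 (SE), a fold of 1.78 with a 95% interval of 1.61 to 1.97 (adjusted p 2.18e-05, limma). The low-set libraries alone gave 0.72 and the high-set libraries alone 1.01. ID2-AS1, a noncoding gene on the opposite strand that overlaps ID2, was also higher, with 103 to 156 normalised counts in EXT1-/- libraries and 57 to 77 in WT libraries (adjusted p 0.00887, limma), and it was named after its values were seen. The kit marks strand, but how the authors counted strand is not given in the sources used here.

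ID1 was higher as well, by a smaller and more variable amount. ID1 (ENSG00000125968, chromosome 20, 31605283 to 31606515, plus strand) had 1268, 1175, 1195 and 2164 normalised counts in EXT1-/- replicates 1 to 4, against 838, 889, 999 and 774 in WT replicates 1 to 4. No EXT1-/- library reached down to the WT range, and replicate 4 stood far above the other EXT1-/- libraries. The log2 fold change was 0.68 ± 0.19 (SE; fold 1.61, 95% interval 1.19 to 2.17; adjusted p 0.0242, limma). Without EXT1-/- replicate 4 it was 0.48 (adjusted p 0.00676, limma), and it was 0.42 among low-set and 0.98 among high-set libraries. The call was lost without WT replicate 2 (adjusted p 0.0565, limma) or WT replicate 4 (adjusted p 0.068, limma).

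ID3 went the other way. The gene (ENSG00000117318, chromosome 1, 23557918 to 23559794, minus strand) had 1540, 1243, 1528 and 2686 normalised counts in EXT1-/- replicates 1 to 4, against 2728, 2927, 3083 and 2615 in WT replicates 1 to 4. EXT1-/- replicates 1 to 3 lay far below every WT library, whereas replicate 4 lay above WT replicate 4, so the groups overlapped by that library. The log2 fold change was -0.76 ± 0.21 (SE; fold 0.591, 95% interval 0.427 to 0.818; adjusted p 0.0218, limma). Over the 70 ways to divide the 8 libraries, an exact two-sided permutation test gave p = 0.0571 for ID3, where 0.0286 is the smallest this design allows. Without EXT1-/- replicate 4 the difference was -0.99 on the log2 scale (adjusted p 0.000225, limma), and it was -1.06 among low-set and -0.42 among high-set libraries. The call was lost without EXT1-/- replicate 1 or 3 or WT replicate 2 or 3, with adjusted p between 0.0508 and 0.0606 (limma).

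ID4, the least abundant ID gene, was higher in EXT1-/- cells. ID4 (ENSG00000172201, chromosome 6, 19837386 to 19840684, plus strand) had 153, 201, 211 and 248 normalised counts in EXT1-/- replicates 1 to 4, against 61, 140, 110 and 133 in WT replicates 1 to 4. The groups did not overlap, though EXT1-/- replicate 1 was close to the highest WT library, and WT replicate 1 was low. ID4 had a log2 fold change of 0.91 ± 0.26 (SE; fold 1.89, 95% interval 1.24 to 2.86; adjusted p 0.0284, limma). The difference was 0.69 among low-set and 1.66 among high-set libraries, the latter resting on the low WT replicate 1. The call was lost without EXT1-/- replicate 2, 3 or 4 or WT replicate 3, with adjusted p between 0.0579 and 0.0726 (limma).

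Per kilobase of annotated exon, the 4 ID genes differed widely in level. In EXT1-/- cells ID2 led with 6847 ± 424 normalised counts per kb, followed by ID1 with 1176 ± 387, ID3 with 973.4 ± 355.8 and ID4 with 86.7 ± 16.7 (SD, n = 4 libraries). In WT cells ID2 had 3842 ± 211 per kb, ID3 1579 ± 116, ID1 709.6 ± 77.1 and ID4 47.4 ± 15.2 (SD, n = 4 libraries). ID3 and ID1 thus overlapped in EXT1-/- libraries and did not overlap in WT libraries. The order of ID1 and ID3 in EXT1-/- cells depended on the length used, since with the longest basic transcript ID3 had 1398 and ID1 1176 normalised counts per kb. As shares of the summed ID level per kb, ID3 made up 10.5% ± 2.5 in EXT1-/- cells and 25.6% ± 1.3 in WT cells, and ID2 75.8% ± 5.0 in EXT1-/- cells and 62.2% ± 2.1 in WT cells (SD, n = 4 libraries each).

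The ratio of ID3 to ID1 within a library was the steadiest difference within the family, and it does not depend on how libraries are scaled. ID3:ID1 was 1.21, 1.06, 1.28 and 1.24 in EXT1-/- replicates 1 to 4, against 3.25, 3.29, 3.08 and 3.38 in WT replicates 1 to 4. EXT1-/- replicate 4, in which both genes were high, fell among the other EXT1-/- libraries by this measure. The ratio averaged 1.20 ± 0.10 in EXT1-/- cells and 3.25 ± 0.12 in WT cells (SD, n = 4 each), a log2 difference of -1.44 (exact permutation p = 0.0286, the smallest possible, and 0.0457 adjusted over the 8 pairs compared). ID2:ID3 was 10.3, 11.4, 9.45 and 5.94 in EXT1-/- libraries, against 2.89, 2.83, 2.85 and 3.40 in WT libraries (log2 difference 1.59, exact permutation adjusted p 0.0457). ID3:ID4 ranged from 6.16 to 10.8 in EXT1-/- libraries and from 19.5 to 44.0 in WT libraries (log2 difference -1.67, exact permutation adjusted p 0.0457). The changes of ID3 and of the other ID genes were therefore unequal.

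Among ID1, ID2 and ID4 no unequal change was detected with all 8 libraries. ID2:ID1 averaged 11.0 ± 2.4 in EXT1-/- cells and 9.75 ± 1.19 in WT cells (SD, n = 4 each; log2 difference 0.15, exact permutation adjusted p 0.490). That ratio was 12.5, 12.0, 12.1 and 7.38 in EXT1-/- replicates 1 to 4, against 8.80 to 11.5 in WT libraries, so the groups overlapped by replicate 4. Without EXT1-/- replicate 4 the log2 difference of ID2:ID1 was 0.33 (unadjusted exact permutation p = 0.0571). ID4:ID1 averaged 0.146 ± 0.033 in EXT1-/- cells and 0.129 ± 0.045 in WT cells (SD, n = 4 each; log2 difference 0.23, exact permutation adjusted p 0.490). ID2:ID4 ranged from 64.2 to 102.8 in EXT1-/- libraries and from 58.8 to 127.4 in WT libraries, with a log2 difference of -0.08 (exact permutation adjusted p 0.714). A p that misses the threshold does not show that these genes moved alike, and ID4 had few counts.

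**Figure D2:**
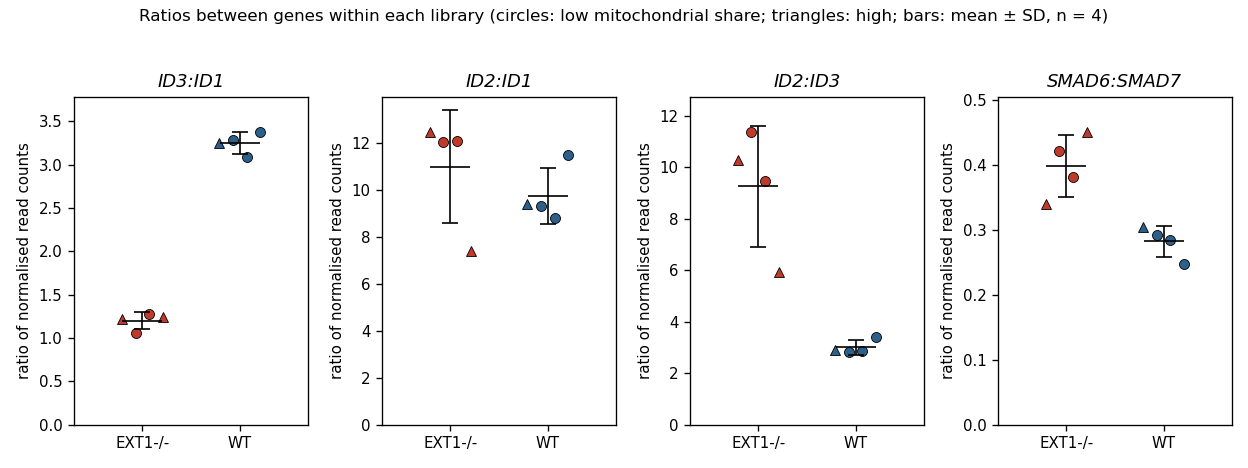
Ratios of normalised read counts between pairs of genes within each library (vertical axes, starting at 0), with mean and SD. ID3:ID1 lies between 1.06 and 1.28 in the EXT1-/- libraries and between 3.08 and 3.38 in the WT libraries, while ID2:ID1 overlaps between the groups.

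Of the feedback inhibitors, both inhibitory SMAD genes rose. SMAD6 encodes an inhibitory SMAD that acts mainly on the BMP branch. It (ENSG00000137834, chromosome 15, 66702228 to 66782848, plus strand) had 284, 322, 308 and 440 normalised counts in EXT1-/- replicates 1 to 4, against 145, 136, 138 and 122 in WT replicates 1 to 4. Every EXT1-/- library was far above the WT libraries. Its log2 fold change of 1.30 ± 0.14 (SE) was the largest of the 9 genes, a fold of 2.46 with a 95% interval of 1.98 to 3.06 (adjusted p 0.000153, limma). Among low-set libraries it was 1.25 and among high-set libraries 1.28. SMAD6 is the gene with the palindromic SMAD element in the window printed above, and 0.202% of all windows share that feature. The BAMBI window held 9 marked matches and the ID2 window none. The part of such elements in these differences was not tested.

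SMAD7 encodes the inhibitory SMAD that acts on both the BMP branch and the TGF-β and Nodal branch. It (ENSG00000101665, chromosome 18, 48919853 to 48952052, minus strand) had 839, 766, 810 and 979 normalised counts in EXT1-/- replicates 1 to 4, against 479, 469, 488 and 496 in WT replicates 1 to 4. The WT values were nearly equal and every EXT1-/- value was higher. SMAD7 had a log2 fold change of 0.81 ± 0.08 (SE; fold 1.75, 95% interval 1.54 to 1.99; adjusted p 0.000108, limma), with 0.70 among low-set and 0.92 among high-set libraries. The ratio SMAD6:SMAD7 was 0.339, 0.421, 0.381 and 0.450 in EXT1-/- libraries, against 0.304, 0.291, 0.284 and 0.247 in WT libraries, so SMAD6 changed more than SMAD7 (log2 difference 0.49, exact permutation adjusted p 0.0457). Without WT replicate 2, 3 or 4 the unadjusted exact permutation p of that ratio was 0.0571.

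BAMBI, a membrane pseudoreceptor that lacks a kinase domain and blunts BMP and activin signals, did not pass the test. The gene (ENSG00000095739, chromosome 10, 28677342 to 28682939, plus strand) had 467, 480, 467 and 658 normalised counts in EXT1-/- replicates 1 to 4, against 443, 472, 440 and 518 in WT replicates 1 to 4. Apart from EXT1-/- replicate 4 the values of both groups lay in the same range. The log2 fold change was 0.13 ± 0.12 (SE), and its interval, a fold of 0.906 to 1.33 (adjusted p 0.44, limma), leaves out the folds measured for SMAD6 and SMAD7. Without EXT1-/- replicate 4 the value was 0.01 on the log2 scale (adjusted p 0.929, limma).

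SMAD9 encodes the third BMP receptor-activated SMAD, also called SMAD8, which is less active than SMAD1 and SMAD5 and is itself a BMP target in several cell types. It (ENSG00000120693, chromosome 13, 36844831 to 36920765, minus strand) was close to the lower limit of the table, with 23, 44, 30 and 36 normalised counts in EXT1-/- replicates 1 to 4, against 44, 46, 34 and 18 in WT replicates 1 to 4. The groups overlapped throughout. The log2 fold change was -0.05 ± 0.33 (SE; adjusted p 0.932, limma), and at this depth folds from 0.575 to 1.63 lay within its 95% interval. The ratio SMAD9:SMAD6 nevertheless averaged 0.102 ± 0.026 in EXT1-/- cells and 0.264 ± 0.082 in WT cells (SD, n = 4 each; log2 difference -1.35, exact permutation adjusted p 0.0457), so these genes changed unequally.

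ATOH8 encodes a bHLH transcription factor that is a known target of BMP signalling in endothelium and liver. It (ENSG00000168874, chromosome 2, 85751344 to 85788066, plus strand) had 110, 93, 94 and 159 normalised counts in EXT1-/- replicates 1 to 4, against 46, 50, 44 and 57 in WT replicates 1 to 4. All EXT1-/- libraries were above all WT libraries. The log2 fold change was 1.17 ± 0.19 (SE; fold 2.24, 95% interval 1.66 to 3.03; adjusted p 0.00176, limma), with 0.89 among low-set and 1.50 among high-set libraries. Per kb of annotated exon it stayed low, at 18.8 ± 5.1 normalised counts in EXT1-/- cells and 8.11 ± 0.94 in WT cells (SD, n = 4 each).

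Per kb the order of the other genes was the same in both groups, BAMBI first, then SMAD7, SMAD6, ATOH8 and SMAD9. BAMBI had 223.9 ± 40.4 normalised counts per kb in EXT1-/- cells and 202.4 ± 15.6 in WT cells, and SMAD7 had 168.6 ± 18.3 in EXT1-/- cells and 96.0 ± 2.3 in WT cells (SD, n = 4 each). By annotated exon length the neighbours ATOH8 and SMAD9 did not overlap in EXT1-/- libraries, at 15.3 to 26.2 and 4.02 to 7.69 per kb. They overlapped in WT libraries, at 7.24 to 9.38 and 3.15 to 8.04 per kb. The WT overlap depended on the length used. With the longest basic transcript the WT means were 20.2 normalised counts per kb for ATOH8 and 6.35 for SMAD9.

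**Figure D3:**
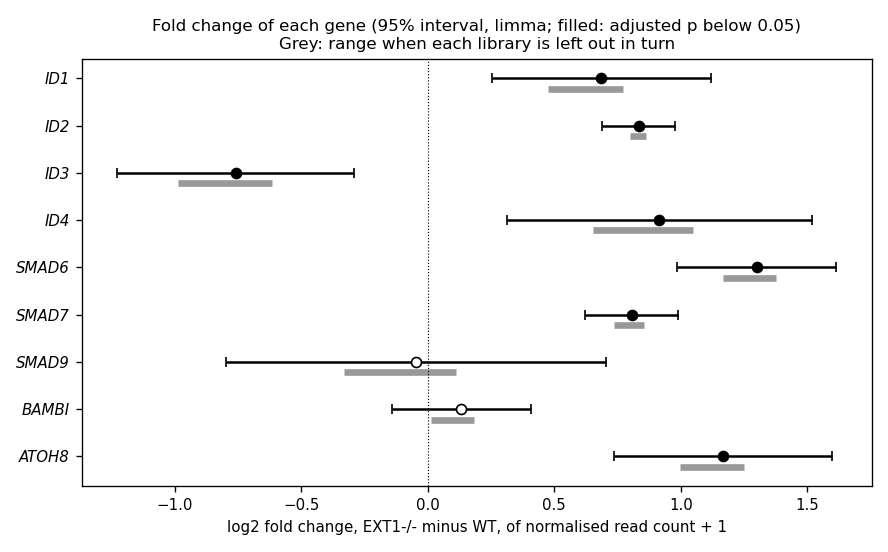
Log2 fold change of each gene, EXT1-/- minus WT, with its 95% interval (horizontal axis), and the range when each library is left out in turn (grey). The intervals of 6 genes lie above 0, that of ID3 lies below 0, and those of SMAD9 and BAMBI include 0.

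EXT1-/- replicate 4 stood apart most for ID3, ID1 and ATOH8. In 8 of the 9, SMAD9 excepted, it was the highest EXT1-/- library, which held for 33.0% of the 15065 genes of at least 1 CPM (about 38.9 normalised counts). Relative to the mean of the other EXT1-/- libraries it was higher on the log2 scale by 0.91 for ID3, 0.84 for ID1 and 0.68 for ATOH8. The same difference was 0.53 for SMAD6, 0.48 for BAMBI, 0.41 for ID4, 0.28 for SMAD7, 0.20 for SMAD9 and 0.11 for ID2. Over all genes of at least 1 CPM the median of this difference was 0.02, and its 5th and 95th percentiles were -0.39 and 0.59. Of the 9 genes, only ID3, ID1 and ATOH8 lay outside that range. Set against EXT1-/- replicate 1, which belongs to the same high set, replicate 4 was higher by 0.80 for ID3, 0.77 for ID1 and 0.69 for ID4. The values were 0.63 for SMAD6, 0.62 for SMAD9, 0.53 for ATOH8, 0.49 for BAMBI, 0.22 for SMAD7 and 0.01 for ID2. Over all genes of at least 1 CPM the median against replicate 1 was 0.006, with 5th and 95th percentiles of -0.30 and 0.44. Replicate 4 was also the highest EXT1-/- library for MSX1 (10856 normalised counts, against 3974 to 5589 in the other EXT1-/- libraries), SP5 and ZIC1. What set this library apart was not tested.

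**Figure D4:**
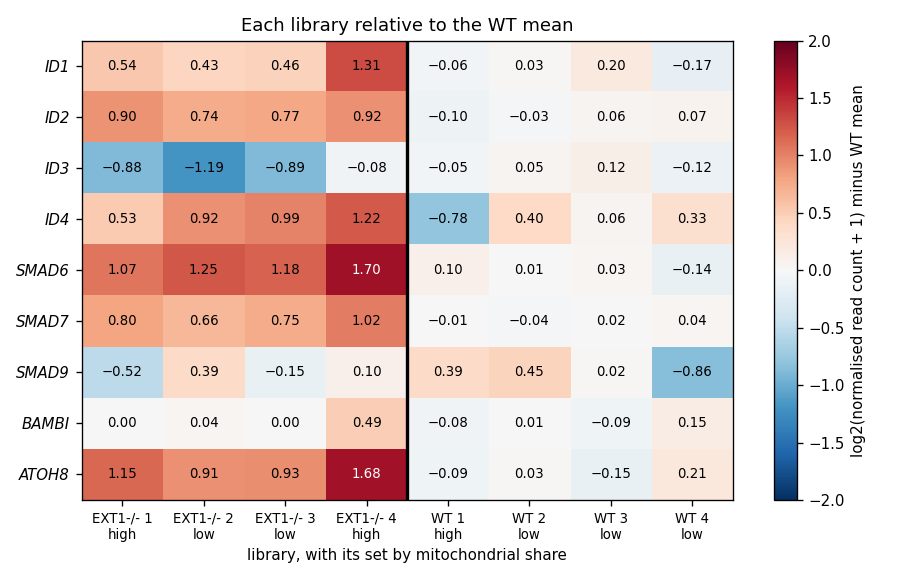
Each library's log2(normalised read count + 1) minus the mean of the WT libraries, for the 9 genes (rows) in 8 libraries (columns). EXT1-/- replicate 4 has the highest EXT1-/- value in every row but SMAD9, and ID3 is the row in which EXT1-/- replicates 1 to 3 are all well below the WT mean.

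The surrounding pathway was described with lists of genes that are not among the 9. Some genes, HAND1 and TFAP2A among them, stand in several of the pathway and cell type lists. The counts of those lists are therefore not separate observations. Of the 12 BMP and GDF ligand genes listed, 7 were in the table, of which 5 were higher in EXT1-/- cells, none was lower and 2 did not pass (median log2 fold change 1.19, against 0.01 for all genes). BMP4, a ligand that drives mesoderm and amnion, had 389, 372, 381 and 523 normalised counts in EXT1-/- replicates 1 to 4, against 117, 105, 129 and 120 in WT replicates 1 to 4 (fold 3.49, adjusted p 1.31e-05, limma). BMP5 and BMP6 were low but higher in EXT1-/- cells, by 3.47-fold and 3.92-fold (adjusted p 0.00024 and 0.000461, limma). BMP2, the closest relative of BMP4, did not pass, with 305.8 ± 86.4 normalised counts in EXT1-/- cells and 434.8 ± 65.3 in WT cells (SD, n = 4 each; adjusted p 0.0762, limma). For 3 of the 7 ligand genes the WT mean was below 1 CPM, so a filter on low values would have admitted them through EXT1-/- libraries.

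Receptors, carriers, antagonists and other brakes had medians near that of all genes. Among 11 measured genes for receptors and co-receptors, the test called 4 higher and 1 lower (median 0.14). Among them, the co-receptor genes RGMB, RGMA and TGFBR3 rose by 1.60-fold, 2.05-fold and 1.59-fold (adjusted p 0.00379, 0.0117 and 0.00107, limma), and BMPR1A, a main BMP type I receptor gene, fell to 3858 ± 288 normalised counts in EXT1-/- cells, against 4650 ± 282 in WT cells (SD, n = 4 each; adjusted p 0.0176, limma). The BMP carriers SMAD1 and SMAD5 and the shared carrier SMAD4 did not pass, with folds of 1.02, 0.866 and 0.989, and 95% intervals of 0.835 to 1.24 for SMAD1, 0.697 to 1.08 for SMAD5 and 0.827 to 1.18 for SMAD4. SMAD3, a carrier of the Nodal and TGF-β branch, rose to 3224 ± 87.8 in EXT1-/- cells, against 1730 ± 51.6 in WT cells (SD, n = 4 each; adjusted p 3.64e-06, limma), and SMAD2 rose by 1.23-fold (adjusted p 0.042, limma). Of 11 other measured genes that restrain SMAD signalling inside the cell, 3 were higher and none lower (median 0.13): the ubiquitin ligase gene SMURF1, the corepressor gene SKI and the ubiquitin ligase gene STUB1, by 1.24-fold, 1.31-fold and 1.29-fold (adjusted p 0.00788, 0.0299 and 0.0407, limma). Of 7 measured secreted antagonists 2 were higher and 1 lower (median 0.02). GREM1 had 44, 42, 43 and 61 normalised counts in EXT1-/- libraries, against 7, 1, 6 and 2 in WT libraries (adjusted p 0.000701, limma). Its WT mean was below 1 CPM, so a filter on low values would have admitted it through EXT1-/- libraries. FSTL3 was higher by 1.34-fold (adjusted p 0.0416, limma), and CHRDL1 fell to 795.2 ± 38.8 in EXT1-/- cells, against 1051 ± 32.1 in WT cells (SD, n = 4 each; adjusted p 0.000874, limma).

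Most of the measured genes known to respond to BMP, other than the 9, were higher in EXT1-/- cells. Of 13 listed, 9 were in the table, of which 7 were higher and none lower (median 2.60). A WT mean below 1 CPM was found for 5 of the 9, so a filter on low values would have admitted these through EXT1-/- libraries. MSX1, a homeobox gene active in limb buds and neural crest, had 5589, 3974, 4011 and 10856 normalised counts in EXT1-/- libraries, against 392, 390, 494 and 536 in WT libraries (adjusted p 3.41e-05, limma). Its relative MSX2 was higher by 5.60-fold (adjusted p 1.98e-05, limma), and TFAP2A, a transcription factor of the epidermal and crest lineages, had 127 to 273 normalised counts in EXT1-/- libraries and 1 to 5 in WT libraries (adjusted p 1.52e-05, limma). Of the genes on the Nodal side, LEFTY1, a feedback inhibitor of Nodal, was 2.33-fold higher (adjusted p 0.00965, limma), and NODAL itself fell to 2056 ± 319 in EXT1-/- cells, against 4286 ± 255 in WT cells (SD, n = 4 each; adjusted p 0.000106, limma).

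The factors that ID proteins bind were also read. The E protein genes TCF4 and TCF12 were lower by a small amount, with 8904 ± 565 normalised counts for TCF4 in EXT1-/- cells and 10554 ± 461 in WT cells, and 4165 ± 46.9 for TCF12 in EXT1-/- cells and 4683 ± 280 in WT cells (SD, n = 4 each; adjusted p 0.0152 and 0.0443, limma). TCF3 did not pass, with 9286 ± 2554 in EXT1-/- cells and 6298 ± 1137 in WT cells (SD, n = 4 each; adjusted p 0.0687, limma). Of 23 tissue-restricted bHLH genes listed, 6 were in the table, of which 4 were higher and 1 lower (median 2.98). The WT mean was below 1 CPM for 4 of the 6. NEUROG2, a proneural factor, had 187, 165, 140 and 199 normalised counts in EXT1-/- libraries, against 12, 10, 7 and 13 in WT libraries (adjusted p 3.99e-06, limma), and HAND1 had 40 to 104 in EXT1-/- libraries and 0 or 1 in WT libraries (adjusted p 5.67e-05, limma). NHLH2 was lower, with 49 to 57 in EXT1-/- libraries and 117 to 140 in WT libraries (adjusted p 4.04e-05, limma).

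**Figure D5:**
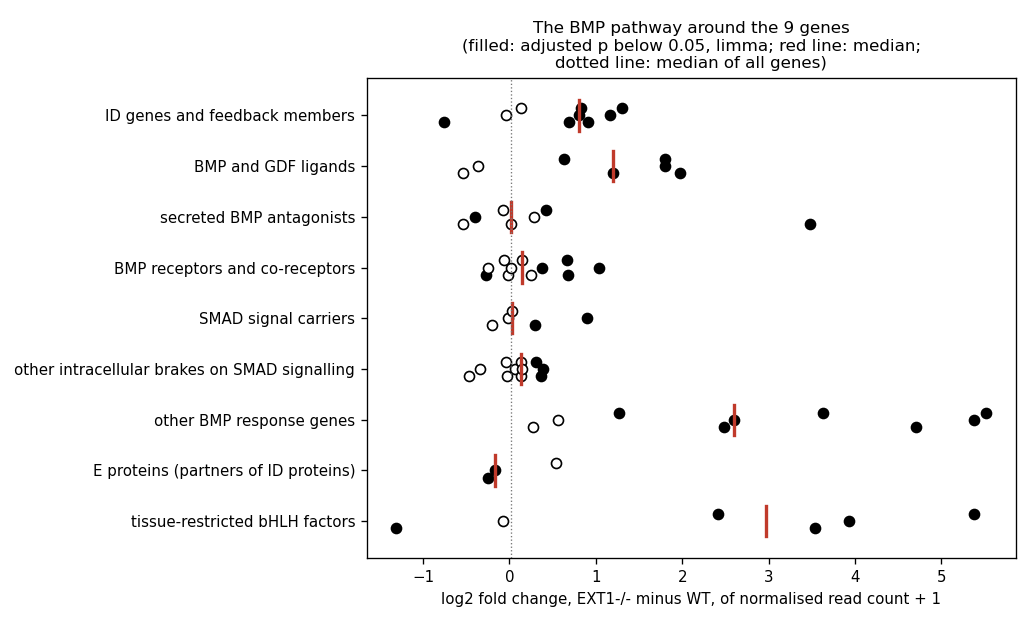
Log2 fold change, EXT1-/- minus WT, of the 9 genes and of the measured genes of 8 pathway lists (rows), with list medians in red. The 9 genes have a median of 0.81, the ligands 1.19, the other BMP response genes 2.60 and the tissue-restricted bHLH genes 2.98. Receptors, SMAD carriers and other brakes have medians of 0.14, 0.03 and 0.13. The WT mean was below 1 CPM for 3 of 7 ligand genes, 5 of 9 response genes and 4 of 6 bHLH genes.

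EGR1 was read beside ID3, a choice made after its values were seen, because EGR1 activates Id3 downstream of ERK in mouse lymphocyte precursors. EGR1 had 41, 24, 20 and 36 normalised counts in EXT1-/- replicates 1 to 4, against 873, 671, 719 and 593 in WT replicates 1 to 4 (adjusted p 2.55e-06, limma). It was thus low in all EXT1-/- libraries, replicate 4 included, in which ID3 was at the WT level. The EGR motif GCGTGGGCG was found in no window of the 9 genes and in 0.795% of all windows, and its variant GCGGGGGCG in ID4 and SMAD9 and in 5.07% of all windows. The part of EGR1 in the difference of ID3 was not tested.

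Markers of cell types moved with the groups as well. The primitive streak and mesendoderm list, 6 of 7 genes measured, summed to 15781 to 29058 normalised counts in EXT1-/- libraries and 30091 to 33834 in WT libraries. Of these genes 3 were lower (MIXL1, EOMES and NODAL), 1 was higher (SP5) and 2 did not pass, and SP5 alone gave 15484 of the 29058 counts in EXT1-/- replicate 4. The neuroectoderm list, 3 of 7 genes measured, summed to 2816 to 5000 in EXT1-/- libraries and 142 to 184 in WT libraries. Its defining genes PAX6 and SOX1 were not among the 3 measured. All 3 were higher, ZIC1 made up most of the EXT1-/- sum, and the other two had a WT mean below 1 CPM, so a filter on low values would have admitted them through EXT1-/- libraries. The surface ectoderm, amnion and trophectoderm list, 5 of 8 genes measured, summed to 625 to 910 in EXT1-/- libraries and 309 to 415 in WT libraries, with 3 genes higher, 1 lower and 2 with a WT mean below 1 CPM. The mesoderm list, 4 of 6 genes measured, summed to 1683 to 1965 in EXT1-/- libraries and 11116 to 12021 in WT libraries, with 2 genes lower and 2 not called. The pluripotent list, 5 of 5, summed to 55307 to 61982 in EXT1-/- libraries and 98330 to 101379 in WT libraries, with 4 genes lower and 1, SOX2, higher. The definitive endoderm list, 4 of 5 genes measured, summed to 1204 to 1804 in EXT1-/- libraries and 445 to 501 in WT libraries, but 2 genes were higher (GATA4 and CXCR4) and 2 lower (FOXA2 and HHEX), with a median log2 fold change of 0.11. EOMES, SOX2, FOXA2 and HHEX are outside the rule for named genes and were named after their values were seen. In these bulk samples fewer cells of a type and less RNA per cell cannot be told apart, and the part of these shifts in the values of the ID genes was not tested.

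The genes whose values followed each ID gene most closely were ranked by the root mean square difference of log2 deviations from the WT mean over the 8 libraries, among 15065 genes of at least 1 CPM. For ID1 they were TNRC18 and FGF8, a growth factor gene of the primitive streak, at 0.08 each. For ID2 they were RCN1, a calcium-binding protein of the endoplasmic reticulum, at 0.05 and CDH13, a cadherin gene, at 0.06. For ID3 they were CHGA, a protein of secretory granules, at 0.07 and CHST7, a sulfotransferase of chondroitin chains, at 0.11. For ID4, a gene of low counts, they were DNER and LFNG, both tied to Notch signalling, at 0.16 and 0.17. CHGA had 286, 237, 289 and 454 normalised counts in EXT1-/- libraries, against 491, 505, 596 and 489 in WT libraries, and so was low in EXT1-/- replicates 1 to 3 and closer to WT in replicate 4, as ID3 was.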

How the data were processed

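A single table of the whole series was used. It holds 8 columns of normalised read counts and the authors' comparison of EXT1-/- with WT cells, and 0 columns of other samples. STAR, RSEM, edgeR and the build GRCh38.p10 are named, per the submitters' processing notes, without versions or roles. The deposited signal per library is whole numbers with nearly equal totals, so it is normalised rather than raw, and whole reads were not recovered. For each gene the authors deposited, besides these, p-value and FDR, a test score, and the fold change and mean CPM as log2.

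Values were tested as log2(value + 1) with limma 3.58.1 (R 4.3.3, intensity trend, genotype as the only term), with Benjamini-Hochberg adjustment over 15811 genes and a threshold of 0.05 (alternatives: another pseudocount, filter or scaling, the library set, a replicate block and leaving out libraries). Fold changes are on that scale, which understates low genes. Ratios used two-sided exact permutation tests, with Benjamini-Hochberg adjustment over the 8 pairs. Each pair with an adjusted p of 0.0457 had the smallest possible exact p, 0.0286. That adjusted value depends on how many pairs reached the smallest p together. These pairs share ID3 or SMAD6, so they are not separate observations. Library sets were split at the largest gap in mitochondrial share. GENCODE 29, matched by 15777 genes (99.78%), gave gene positions and exon lengths. Python 3.11.15, numpy 2.4.6, pandas 2.3.3 and matplotlib 3.10.9 were used. Genes outside the 9 were named by a rule: up to 3 called genes with the smallest adjusted p per pathway list, the 2 most abundant per marker list (given here as list sums), a fixed set of BMP and E protein genes, and the nearest 2 genes to each ID gene. Members and lists were chosen with earlier results of these data known. From the TGF-β and Nodal response list 1 gene is not reported here, so no count is given for that list.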

Additional observations from a re-analysis of the deposited data

Results flagged for a closer look

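In each group of 4 libraries the highest or lowest value was compared with its nearest neighbour, as the gap divided by the group's whole range, and values above Dixon's 95% critical value are listed. About 1 in 20 groups of independent, normally distributed values would pass it. The groups here share libraries, and some are ratios of the same genes, so their count cannot be set against that share. Of 122 groups examined 14 were listed, and in 8 of them EXT1-/- replicate 4 was the highest. Those 8 were ID1 (0.906), BAMBI (0.932), BMP4 (0.887), GREM1 (0.895), MSX2 (0.881), SP5 (0.918), ZIC1 (0.88) and GATA4 (0.861). For ID1 that library had 2164 normalised counts, against 1175 to 1268 in the other EXT1-/- libraries, and for BAMBI 658, against 467 to 480. The ID2:ID1 ratio was lowest in EXT1-/- replicate 4 (0.913). In EXT1-/- replicate 1 the ID2:ID4 ratio (0.848) and ID2-AS1 (0.887) were highest. Among WT libraries the ID2:ID3 ratio was highest in replicate 4 (0.89), SMAD4 was lowest in replicate 1 (0.935) and EXT1 was highest in replicate 1 (0.859).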

How the results depend on the processing

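The directions of ID1, ID2, ID3, ID4, SMAD6, SMAD7 and ATOH8 were kept under all alternatives run, and their calls under all but the omission of single libraries named here. ID4, SMAD9 and ATOH8 were not tested with the filter of 5 CPM in 4 libraries, which removed them. With libraries left out in turn the log2 fold change ran from 0.48 to 0.77 for ID1, with adjusted p from 0.00676 to 0.068, from -0.99 to -0.62 for ID3 (adjusted p 0.000225 to 0.0606) and from 0.65 to 1.05 for ID4 (adjusted p 0.0191 to 0.0726, limma). SMAD9, which was not called, ran from -0.33 to 0.11 and was 0.25 within the low set, and BAMBI was -0.0065 within the low set. With the library set as a term 4142 genes were called higher and 4053 lower, against 2405 and 2658 without it. ID4:ID1 ran from -0.013 to 0.40 and ID2:ID4 from -0.23 to 0.15 on the log2 scale with libraries left out, and ID2:ID4 was 0.030 within the low set. Without EXT1-/- replicate 1, 2, 3 or 4 the exact permutation p of SMAD9:SMAD6 was 0.0571. Deviations of the replicates numbered 4, which lie in different library sets, correlated at -0.65. Those of the other numbers, whose libraries share a set, correlated at 0.26 to 0.78. All correlations between EXT1-/- and WT libraries were positive within a set and negative across sets. They therefore cannot tell whether the replicate numbers pair the libraries. With a replicate block 2276 genes were called higher and 2658 lower, and no call among the 9 genes changed (ID1 0.68, adjusted p 0.0472; ID3 -0.76, adjusted p 0.0356, limma). Permuted within numbered pairs, no ratio could go below an exact p = 0.125. SMAD9 had the lowest counts and the widest interval of the 9 genes. The causes of these shifts were not tested.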
